A study of Mus musculus with 27 samples.

Results

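The genes described here code for proteins that write, erase or read chemical marks on histones or that move nucleosomes: the Polycomb repressive complex 2 (PRC2), histone methyltransferases and demethylases, histone deacetylases and sirtuins, histone acetyltransferases and ATP-driven remodellers. The members were a fixed list of 34 such genes, and each was represented by its brightest probe set with a single gene symbol over 27 arrays, a choice made on the mean over all groups. Of the 34, 33 were measured in this way, out of 18194 genes on the arrays, and Suv39h1 was not analysed here.

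Messenger RNA of BALB/c mouse T cells was measured on Affymetrix 3' arrays, with 3 arrays in each of 9 sorted groups. Thymocytes of the CD4 single-positive stage were divided in 2 ways. The first was Foxp3, the master regulator of the regulatory T cell (Treg) lineage, read presumably through GFP, and the second was CD24, which is lost from the surface during maturation. The resulting Foxp3+ and Foxp3- thymocytes fell into CD24hi, CD24int and CD24lo levels, from immature to mature. The Foxp3- thymocytes were taken as conventional T cells, following the series design, while the word Treg stands in their source labels too. Treg precursors of the thymus formed another group: the series title calls them Foxp3-negative and CD25-positive, and no label states their CD24 level. The last groups were lymph node Tregs and lymph node naive T cells. No label gave the age or sex of the mice, pooling, or an allele other than the Foxp3 GFP marker. Nor did any state separate animals for the arrays of a group, so the p-values cover only array-to-array spread, which may be technical. In sorted bulk cells, fewer cells of a type and less RNA per cell cannot be told apart.

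As background, DNA in the nucleus is wound on histones, and acetyl and methyl groups on histone tails set how readily a gene is read. PRC2 places methyl groups on lysine 27 of histone H3 and holds genes silent, acetyltransferases such as p300 open chromatin at enhancers, and deacetylases remove acetyl groups from histones and from other proteins. In Tregs several of these enzymes also act on Foxp3 itself: the protein is acetylated by p300 and deacetylated by Sirt1 and by class II deacetylases, and Ezh2 is known to help activated Tregs keep their identity.

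Promoters of a few members are shown because the widest and most opposed differences among the deacetylases were those of Hdac9 and Hdac5, and because Ezh2 is a known target of the cell cycle factor E2F. Sequences are RefSeq windows from 250 bases before to 50 bases after a transcript start (GRCm38.p6), written in the direction of the gene. In the Hdac9 and Hdac5 windows, capitals mark CpG dinucleotides, the sites of DNA methylation. In the Ezh2 window, capitals mark the E2F letters TTGGCGC. The first Hdac9 window is chr12:34528840-34529139 and the second chr12:34917046-34917345, the Hdac5 window is chr11:102230123-102230422 and the Ezh2 window is chr6:47594981-47595280, all on the minus strand.
Hdac9 first window: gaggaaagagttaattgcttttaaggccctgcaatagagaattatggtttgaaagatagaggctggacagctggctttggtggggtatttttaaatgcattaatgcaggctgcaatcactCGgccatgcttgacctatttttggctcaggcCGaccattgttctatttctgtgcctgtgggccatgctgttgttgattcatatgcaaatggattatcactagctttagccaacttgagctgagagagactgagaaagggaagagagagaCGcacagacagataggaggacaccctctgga
Hdac9 second window: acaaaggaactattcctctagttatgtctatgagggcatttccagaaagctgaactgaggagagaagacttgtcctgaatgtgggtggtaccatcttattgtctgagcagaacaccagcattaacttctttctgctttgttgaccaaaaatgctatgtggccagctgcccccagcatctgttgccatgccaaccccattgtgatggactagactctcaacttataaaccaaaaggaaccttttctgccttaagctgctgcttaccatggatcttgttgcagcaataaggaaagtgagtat
Hdac5: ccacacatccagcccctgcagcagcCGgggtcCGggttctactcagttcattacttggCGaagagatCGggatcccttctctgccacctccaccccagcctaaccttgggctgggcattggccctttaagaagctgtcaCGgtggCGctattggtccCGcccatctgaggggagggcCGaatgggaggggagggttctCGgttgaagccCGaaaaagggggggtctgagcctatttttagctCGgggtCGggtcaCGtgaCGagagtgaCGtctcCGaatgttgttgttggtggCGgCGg
Ezh2: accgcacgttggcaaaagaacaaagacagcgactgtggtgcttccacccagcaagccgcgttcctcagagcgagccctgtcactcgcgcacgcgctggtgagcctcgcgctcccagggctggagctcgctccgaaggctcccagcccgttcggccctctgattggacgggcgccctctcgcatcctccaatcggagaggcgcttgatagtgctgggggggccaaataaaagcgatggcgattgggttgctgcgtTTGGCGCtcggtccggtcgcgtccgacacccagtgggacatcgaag
The Hdac9 windows held 3 and 0 CpG dinucleotides and the Hdac5 window held 18. RefSeq windows were found for 29 of the 33 measured members, 38 windows in all, with a median of 23.5 CpG dinucleotides against 7 over all 32851 windows. At least 10 CpG dinucleotides were present in 84.2% of member windows and in 43.5% of all windows. The letters TTCCCGC or TTGGCGC, searched on both strands, were in 7.89% of member windows (Arid1a, Ezh2 and Suz12) and in 6.81% of all windows. The forkhead letters GTAAACA were in 5.26% of member windows and 3.65% of all windows, and the RUNX letters TGTGGTT in 5.26% and 5.27%. The forkhead and RUNX letters were added after the data had been seen, and a match describes letters in a window, not a bound site.

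The genes that define the sort were read first, as a check of the labels. Foxp3 was higher in Foxp3+ than in Foxp3- thymocytes by 6.27, 6.25 and 6.08 on the log2 scale at CD24hi, CD24int and CD24lo, and Il2ra, which codes for CD25, was 3.74 higher in precursors than in Foxp3- CD24hi cells. From CD24hi to CD24lo, Cd24a fell by 4.93 in Foxp3- cells and fell by 2.72 in Foxp3+ cells. The difference of these falls passed limma's test (2.21 ± 0.60, adjusted p = 0.0179). At CD24lo, Cd24a was 1.625 ± 0.42 higher in Foxp3+ than in Foxp3- cells (0.00569). It did not pass at CD24hi (-0.59, 0.419) or CD24int (0.87, 0.201). Foxp3+ CD24hi cells stood at -1.40 against precursors (0.0236). The CD24lo groups were thus not matched in this transcript. Within each of the groups the replicate arrays correlated at 0.987 to 0.997. Markers of natural killer, NKT and gamma delta T cells stood at a mean log2 intensity of 8.24 in the Foxp3- CD24lo group, with 7 of 10 markers measured, and at 4.59 in Foxp3- CD24hi cells and 5.52 in Foxp3- CD24int cells. The third Foxp3- CD24hi array carried liver transcripts at a mean of 9.63, with Alb, the albumin gene, at 11.7, against means of 4.11 to 4.56 in the 26 other arrays. Cell cycle genes (25 measured of 26) were highest in Foxp3- CD24int cells, at a mean of 8.83, and lowest in lymph node naive cells, at 6.99, and in 9 of 9 groups they were highest on the first array, by 0.46 above the group mean on average. B cell markers stood at 5.63 and 5.49 in lymph node Tregs and naive cells and at 4.61 to 4.74 in the thymic groups.

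Over the 9 groups, 20 of the 33 members differed by a moderated F test with Benjamini-Hochberg adjustment over all genes (adjusted p under 0.05), and the same test passed 39.8% of all genes. The median range of the 9 group means was 0.60 log2 units for the members and 0.45 for all genes. A range of at least 1 log2 unit was found for 9 members and for 17.3% of all genes. The mean log2 intensity of 0 members lay under 4.43, while all genes included dimmer ones. All genes are thus not a background matched for intensity, and the part of intensity was not tested. The 10 members with the widest ranges that passed, described array by array among the roles that follow, were Hdac9, Kat2b, Ezh2, Hdac5, Kdm6b, Hdac6, Kmt2a, Hdac10, Hdac1 and Hdac7. All values are log2 intensities, and levels are compared within a gene only.

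**Figure D1:**
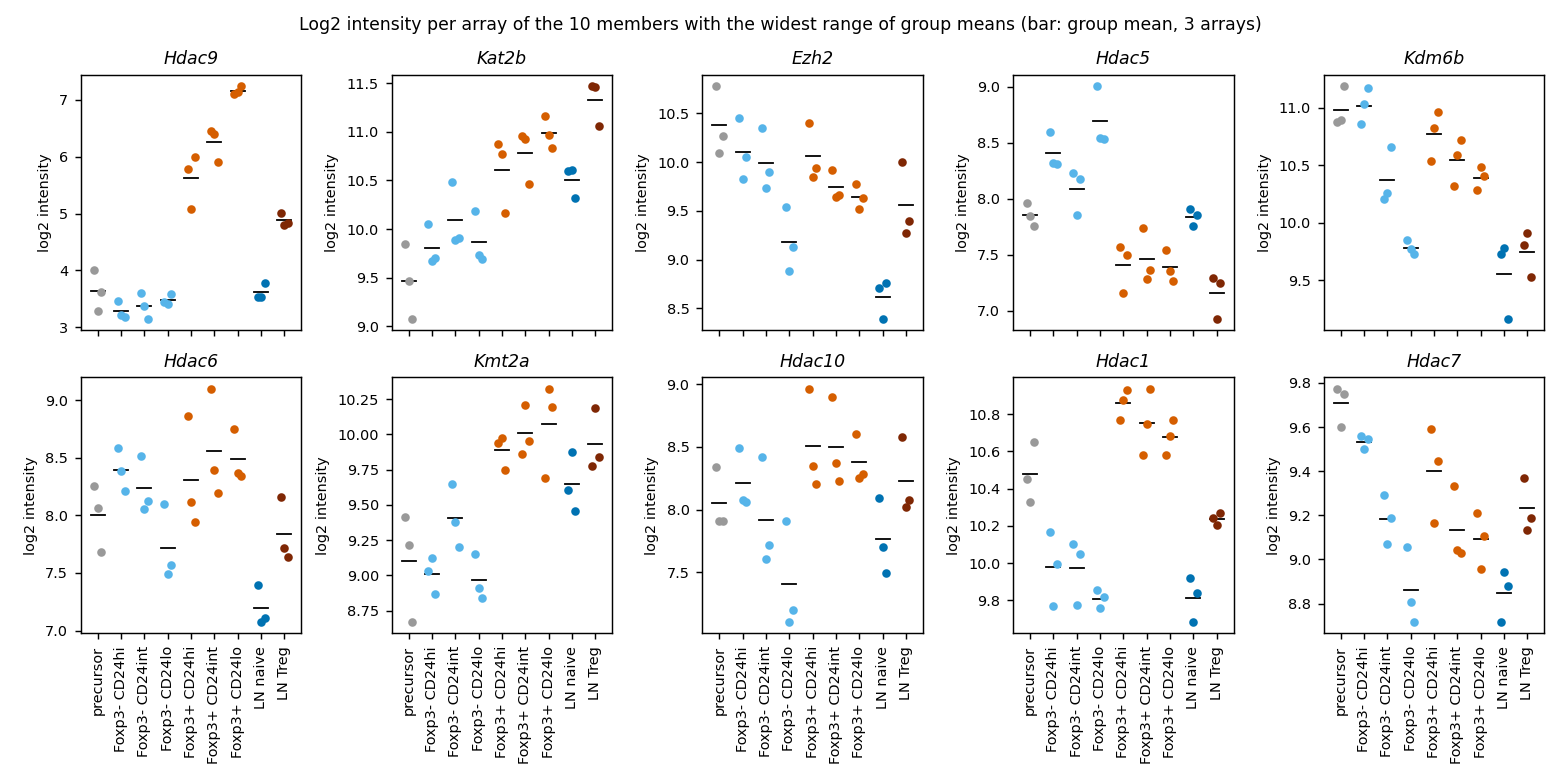
Each panel plots the log2 intensity (y axis) of 1 member on each of the 27 arrays, by sorted group (x axis), with points for arrays and black bars for the means of 3 arrays; LN is lymph node. The Hdac9 panel has Foxp3+ arrays from 4.81 to 7.24 and all other arrays from 3.15 to 4.00.

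Among the class IIa deacetylases, which shuttle between nucleus and cytoplasm and bind transcription factors such as MEF2, Hdac9 had the widest range of all members (3.88 log2 units, adjusted p = 6.54e-15 by limma's F test). Hdac9, whose loss in mice is known to raise Treg suppressive function, read 5.79, 5.08 and 5.99 on the 3 Foxp3+ CD24hi arrays, 6.45, 6.39 and 5.91 at CD24int and 7.10, 7.15 and 7.24 at CD24lo. Lymph node Tregs read 5.01, 4.81 and 4.83. Precursors read 4.00, 3.28 and 3.61, Foxp3- cells 3.47, 3.21 and 3.19 at CD24hi, 3.60, 3.38 and 3.15 at CD24int and 3.45, 3.41 and 3.58 at CD24lo, and lymph node naive cells 3.53, 3.53 and 3.77. Every Foxp3+ array, thymic or peripheral, was above every Foxp3-negative array, and every lymph node Treg array was below every thymic Foxp3+ array. All Foxp3-negative arrays lay under 4.43, the mean log2 intensity under which genes were left out in an alternative setting, so fold changes against them are differences from a dim signal. Another Hdac9 probe set had a mean of 3.64, and no Foxp3 comparison passed on it, with differences of 0.05 to 0.14 in the thymus. None of the other comparisons in which Hdac9 was called passed on it either. The probe set that stood for Hdac9 was the brighter of the pair, with a mean of 4.59, through the Foxp3+ arrays alone, since its group means were 3.29 to 3.63 in the Foxp3-negative groups, so its choice was not independent of the Foxp3 difference. With every probe set of a gene averaged, an alternative setting, the Hdac9 difference over the thymus was 1.52 (adjusted p = 5.96e-15), and it was 1.91 at CD24lo and 0.60 in lymph node. That average includes the brighter probe set, so for Hdac9 it is no independent check.

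Hdac5 ran the other way (range 1.54, adjusted p = 2.64e-08 by limma's F test). It read 7.57, 7.16 and 7.50 in Foxp3+ cells at CD24hi, 7.74, 7.29 and 7.36 at CD24int and 7.55, 7.36 and 7.26 at CD24lo, and 7.29, 6.93 and 7.25 in lymph node Tregs. Foxp3- thymocytes read 8.59, 8.32 and 8.31 at CD24hi, 8.23, 7.86 and 8.17 at CD24int and 9.01, 8.55 and 8.53 at CD24lo. Precursors read 7.96, 7.85 and 7.76 and lymph node naive cells 7.91, 7.76 and 7.85, between the Foxp3+ and the Foxp3- CD24hi arrays. At each CD24 level and in lymph node the Foxp3+ and Foxp3-negative arrays did not overlap.

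Hdac7, a class IIa deacetylase known to be abundant in immature thymocytes (range 0.86, adjusted p = 1.23e-05 by limma's F test), read 9.77, 9.60 and 9.75 in precursors. Foxp3- thymocytes read 9.56, 9.50 and 9.55 at CD24hi, 9.29, 9.07 and 9.19 at CD24int and 9.06, 8.81 and 8.72 at CD24lo, with no overlap between these levels. Foxp3+ thymocytes read 9.59, 9.17 and 9.45, then 9.34, 9.04 and 9.03, then 9.21, 8.96 and 9.11 at the same levels, which overlapped, lymph node Tregs 9.37, 9.14 and 9.19 and naive cells 8.72, 8.95 and 8.88. Hdac4, the remaining class IIa member, had a range of 0.66 and its lowest mean in Foxp3- CD24hi cells (7.00) and its highest in Foxp3+ CD24hi cells (7.66).

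Among the class I deacetylases, the nuclear catalytic subunits of corepressor complexes, Hdac1 was the member of widest range (1.05, adjusted p = 1.36e-08 by limma's F test). It read 10.77, 10.87 and 10.93 in Foxp3+ cells at CD24hi, 10.58, 10.75 and 10.94 at CD24int and 10.58, 10.69 and 10.77 at CD24lo. Foxp3- thymocytes read 10.17, 9.77 and 10.00, then 10.10, 9.77 and 10.05, then 9.86, 9.76 and 9.82 at those levels. Precursors read 10.45, 10.33 and 10.65, lymph node Tregs 10.24, 10.20 and 10.27 and naive cells 9.92, 9.69 and 9.84. The arrays of Foxp3+ and Foxp3- thymocytes did not overlap, precursors lay above all Foxp3- thymocytes, and lymph node Tregs lay below all Foxp3+ thymocytes. Hdac2, the partner of Hdac1 in the same complexes, had a range of 0.71 with its highest mean in precursors (10.63), and Hdac3, the deacetylase of the NCoR and SMRT corepressors, a range of 0.43. Hdac8, known to deacetylate cohesin, had a range of 0.34 and did not pass the F test (adjusted p = 0.969).

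Of the class IIb and class IV deacetylases, Hdac6, a mostly cytoplasmic enzyme that deacetylates tubulin, had a range of 1.37 (adjusted p = 0.00044 by limma's F test). Foxp3+ thymocytes read 8.87, 8.12 and 7.94 at CD24hi, 9.10, 8.40 and 8.19 at CD24int and 8.75, 8.37 and 8.34 at CD24lo. Foxp3- thymocytes read 8.58, 8.39 and 8.21, then 8.51, 8.06 and 8.13, then 8.10, 7.49 and 7.57. Precursors read 8.25, 8.06 and 7.68, lymph node Tregs 8.16, 7.72 and 7.64 and naive cells 7.39, 7.08 and 7.11. The naive arrays lay below all others, and the first array was the highest in 9 of 9 groups, by 0.33 above the group mean on average.

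Hdac10, a class IIb enzyme known to deacetylate polyamines, showed the same array pattern, with the first array highest in 9 of 9 groups, by 0.37 on average (range 1.10, adjusted p = 0.00819 by limma's F test). It read 8.96, 8.35 and 8.20 in Foxp3+ cells at CD24hi, 8.90, 8.37 and 8.22 at CD24int and 8.60, 8.25 and 8.28 at CD24lo. Foxp3- thymocytes read 8.49, 8.08 and 8.06, then 8.42, 7.61 and 7.71, then 7.91, 7.10 and 7.20. Precursors read 8.34, 7.91 and 7.91, lymph node Tregs 8.58, 8.02 and 8.07 and naive cells 8.09, 7.70 and 7.49. Foxp3+ and Foxp3- arrays overlapped at CD24hi and CD24int and did not at CD24lo. The first array was also highest in 9 of 9 groups for Hdac5, Ezh1 and Kat2a. It was highest in 8 for Ezh2, Kat2b, Hdac7, Hdac3 and Smarca4, in 1 for Kdm6b, Hdac8 and Sirt1, and in 0 for Hdac2. Hdac11, the class IV deacetylase, had a range of 0.41 and did not pass (adjusted p = 0.178).

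Among the PRC2 core genes, Ezh2, the main catalytic subunit and a known proliferation gene, had a range of 1.76 (adjusted p = 6.55e-06 by limma's F test). It read 10.78, 10.09 and 10.27 in precursors. Foxp3+ thymocytes read 10.40, 9.85 and 9.94 at CD24hi, 9.92, 9.64 and 9.66 at CD24int and 9.77, 9.52 and 9.63 at CD24lo, and Foxp3- thymocytes 10.45, 9.83 and 10.05, then 10.36, 9.73 and 9.90, then 9.54, 8.89 and 9.13. Lymph node Tregs read 10.00, 9.27 and 9.40 and naive cells 8.71, 8.39 and 8.76. The naive arrays lay below all others, and Foxp3- CD24lo arrays lay below those of the other Foxp3- thymocytes. Beside these values, the cell cycle genes had means of 8.35 in precursors, 7.73, 7.49 and 7.38 in Foxp3+ cells and 8.07, 8.83 and 8.34 in Foxp3- cells from CD24hi to CD24lo, 8.03 in lymph node Tregs and 6.99 in naive cells, and their part in the Ezh2 values was not tested. Ezh1, the alternative catalytic subunit found in resting cells, had a range of 0.68 with its lowest mean in precursors (8.83). Suz12 and Eed, the structural core subunits, had ranges of 0.41 and 0.19 and did not pass the F test (adjusted p = 0.0918 and 0.571).

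The lysine 27 demethylase Kdm6b, which removes the mark that PRC2 places and is known to be induced by signals, had a range of 1.46 (adjusted p = 2.45e-08 by limma's F test). Foxp3- thymocytes read 10.86, 11.03 and 11.17 at CD24hi, 10.21, 10.26 and 10.66 at CD24int and 9.85, 9.77 and 9.73 at CD24lo. Foxp3+ thymocytes read 10.54, 10.82 and 10.96, then 10.32, 10.59 and 10.72, then 10.29, 10.48 and 10.41. Precursors read 10.87, 10.89 and 11.19, lymph node Tregs 9.81, 9.91 and 9.53 and naive cells 9.73, 9.78 and 9.17. The Foxp3- arrays at the 3 levels did not overlap, while the Foxp3+ arrays did between neighbouring levels. Kdm6a, its X-linked relative, had a range of 0.38 and did not pass (adjusted p = 0.245).

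Among the methyltransferases of other lysines, Kmt2a (MLL1), which methylates lysine 4 of histone H3 at active genes, had a range of 1.10 (adjusted p = 5.65e-06 by limma's F test). Foxp3+ thymocytes read 9.94, 9.97 and 9.74 at CD24hi, 9.86, 10.21 and 9.95 at CD24int and 9.69, 10.32 and 10.20 at CD24lo. Foxp3- thymocytes read 9.03, 9.12 and 8.87, then 9.65, 9.38 and 9.20, then 9.15, 8.91 and 8.84. Precursors read 9.41, 9.22 and 8.67, lymph node Tregs 9.78, 10.19 and 9.84 and naive cells 9.61, 9.88 and 9.45. Foxp3+ and Foxp3- arrays were apart at each CD24 level in the thymus and overlapped in lymph node. Kmt2d, an enhancer methyltransferase of the same family, had a range of 0.44, and Setd2, which methylates lysine 36, a range of 0.32, and neither passed (adjusted p = 0.0854 and 0.192). Of the lysine 9 methyltransferases, which mark silent chromatin, Ehmt1 had a range of 0.67, Ehmt2 0.60 and Setdb1 0.53. Ehmt1 and Setdb1 had their highest means in precursors (10.35 and 8.60) and passed, and Ehmt2 did not (adjusted p = 0.0512).

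Among the acetyltransferases, Kat2b (PCAF), a catalytic subunit of coactivator complexes, had the second widest range of all members (1.86, adjusted p = 3.95e-07 by limma's F test). It read 9.85, 9.47 and 9.08 in precursors and 10.05, 9.67 and 9.70, then 10.48, 9.89 and 9.91, then 10.18, 9.74 and 9.70 in Foxp3- thymocytes from CD24hi to CD24lo. Foxp3+ thymocytes read 10.87, 10.77 and 10.17, then 10.96, 10.93 and 10.47, then 11.16, 10.97 and 10.84. Lymph node Tregs read 11.47, 11.46 and 11.06 and naive cells 10.59, 10.61 and 10.32. Lymph node Tregs lay above naive cells without overlap, and Foxp3+ and Foxp3- thymocytes overlapped at CD24int only. Kat2a (GCN5), the close relative of Kat2b, had a range of 0.60, with means of 8.67 in Foxp3+ CD24lo cells and 9.27 in Foxp3- CD24lo cells, and did not pass the F test (adjusted p = 0.0743). Ep300, which codes for p300, had a range of 0.53 and passed, and its relative Crebbp had a range of 0.36 and did not (adjusted p = 0.132).

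The sirtuins, which use NAD, and the remodellers each held members that passed the F test and members that did not. Sirt1, which deacetylates Foxp3 and many other factors, had a range of 0.67 with its highest mean in naive cells (9.02) and passed, while Sirt2, a cytoplasmic tubulin deacetylase, had 0.37 and the mitochondrial Sirt3 0.43, and these 2 did not pass (adjusted p = 0.192 and 0.169). Smarca4 (BRG1), the motor subunit of the BAF remodelling complex, had a range of 0.67 from 9.78 in naive cells to 10.45 in precursors and passed. Arid1a, a DNA-binding subunit of the same complex, had a range of 0.46 and passed, and Chd4, the motor of the NuRD complex, had 0.45 and did not pass (adjusted p = 0.487).

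**Figure D2:**
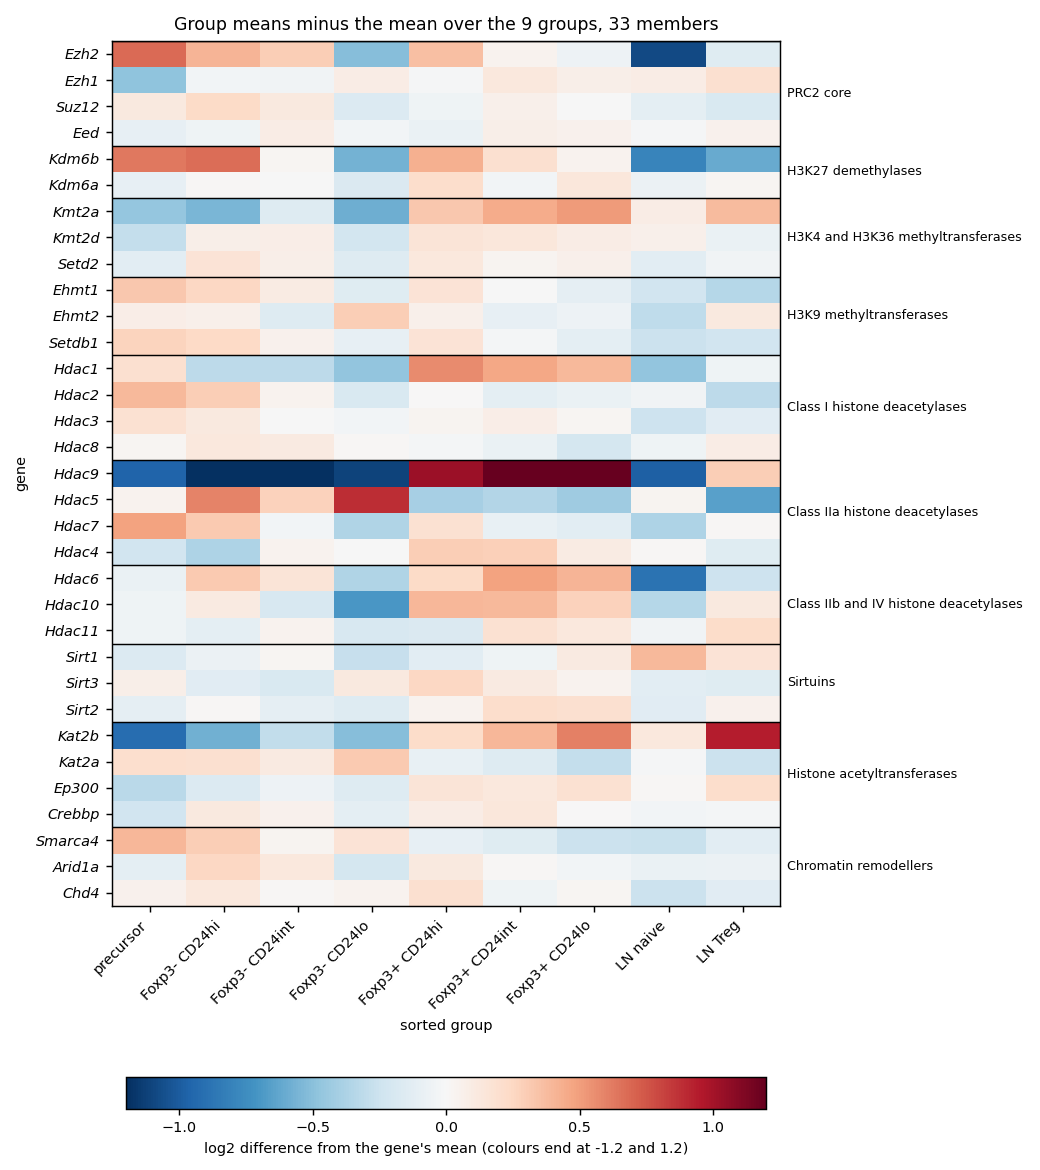
Rows are the 33 measured members by role, columns the 9 sorted groups, and colour the group mean of 3 arrays minus the mean of that gene over the groups, in log2 units, on a scale that saturates at the extremes of Hdac9. Hdac9, Kat2b, Kmt2a and Hdac1 are higher and Hdac5 lower in the 3 Foxp3+ thymic columns than in the 3 Foxp3- ones.

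The first question of the design was how Foxp3+ thymocytes differ from Foxp3- thymocytes. Averaged over the CD24 levels, 8 members were higher in Foxp3+ cells, against 14.5% of all genes, and 3 were lower, against 16.0%. Hdac9 was 2.96 ± 0.11 higher (log2 difference ± standard error, adjusted p = 7.85e-17), a 7.80-fold change. Kat2b was higher by 0.87 ± 0.12 (2.54e-06), Kmt2a by 0.86 ± 0.10 (2.66e-07), Hdac1 by 0.84 ± 0.07 (2.67e-10), Hdac10 by 0.62 ± 0.14 (0.00135) and Hdac4 by 0.34 ± 0.06 (3.68e-05). The higher members were thus 4 deacetylases, an acetyltransferase and a lysine 4 methyltransferase, together with Ep300 and Sirt2. The lower members were Hdac5, at -0.98 ± 0.09 (1.63e-09), Kat2a, at -0.38 ± 0.11 (0.00781), and Smarca4, at -0.33 ± 0.07 (0.000503). The median over the members was 0.06, and -0.01 over all genes. The Sirt2 call ended when any of 6 arrays was left out (Foxp3- array 2 or Foxp3+ array 1 of any CD24 level, adjusted p 0.0572 to 0.0736). Cell cycle genes moved in the same comparison, 23 of 25 lower in Foxp3+ cells, and their part in these differences was not tested. With both CD24lo groups left out of the average, an alternative added after the data were seen, 8 of the 11 calls were kept, and Hdac10 (0.44, adjusted p = 0.075), Sirt2 (0.18, 0.232) and Kat2a (-0.27, 0.162) no longer passed.

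At CD24hi, 5 members were higher in Foxp3+ cells (8.38% of all genes) and 2 were lower (9.65%). Hdac9 was higher by 2.33 ± 0.19 (adjusted p = 1.22e-09), Hdac1 by 0.88 ± 0.12 (3.87e-06), Kmt2a by 0.88 ± 0.18 (0.000771), Kat2b by 0.80 ± 0.21 (0.00784) and Hdac4 by 0.66 ± 0.10 (1.74e-05). Hdac5 was lower, at -0.997 ± 0.15 (2.22e-05), and so was Smarca4, at -0.39 ± 0.12 (0.0242). These were an acetyltransferase, a methyltransferase and 3 deacetylases against a deacetylase and a remodeller. The Kat2b call ended without Foxp3+ CD24hi array 1 (0.67, adjusted p = 0.0581), and the Smarca4 call ended without any of 5 arrays (each Foxp3- CD24hi array and Foxp3+ CD24hi arrays 2 and 3, adjusted p 0.0509 to 0.11). Deviations of same-numbered arrays correlated above 0.1 here, so the replicate numbers were taken to pair these samples. No label says what the number marks, and pairing is meant in this sense below. With the number as a block 12 members passed, adding Sirt3 (0.38, adjusted p = 0.0281), Ep300 (0.32, 0.0179), Hdac10 (0.29, 0.0267), Hdac2 (-0.29, 0.0478) and Kat2a (-0.28, 0.0341). Shares of all genes were not counted under the block or with an array left out, here or below.

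At CD24int, 4 members were higher (8.66% of all genes) and 1 was lower (6.62%). Hdac9 was higher by 2.88 ± 0.19 (adjusted p = 3.41e-11), Hdac1 by 0.78 ± 0.12 (2.44e-05), Kat2b by 0.69 ± 0.21 (0.0243) and Kmt2a by 0.60 ± 0.18 (0.0229), and Hdac5 was lower, at -0.63 ± 0.15 (0.00449). These 5 genes also passed, in the same directions, at CD24hi. The Kmt2a call ended without any of 3 arrays (Foxp3- CD24int arrays 2 and 3 and Foxp3+ CD24int array 2, adjusted p 0.0669 to 0.12) and the Kat2b call without any of 4 (the same 3 and Foxp3+ CD24int array 1, adjusted p 0.0981 to 0.117). Kat2b did not pass with probe sets averaged (0.63, 0.101). Without array 2 of the Foxp3+ group, or array 2 or 3 of the Foxp3- group, 3 members passed. Of the cell cycle genes, 19 of 25 were lower in Foxp3+ cells at this level, and their part in these differences was not tested.

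At CD24lo, 7 members were higher (9.85% of all genes) and 3 were lower (11.2%). Hdac9 was higher by 3.69 ± 0.19 (adjusted p = 1.89e-13), which is 12.9-fold, and Kat2b by 1.12 ± 0.21 (0.000235), Kmt2a by 1.10 ± 0.18 (4.07e-05), Hdac10 by 0.98 ± 0.25 (0.00473), Hdac1 by 0.87 ± 0.12 (3.18e-06) and Hdac6 by 0.77 ± 0.24 (0.02). Kdm6b also passed in this direction (0.61 ± 0.16, 0.00619), and it did not with probe sets averaged (0.10, 0.757). The lower members were Hdac5, at -1.31 ± 0.15 (2.74e-07), Kat2a, at -0.60 ± 0.19 (0.0213), and Smarca4, at -0.43 ± 0.12 (0.0114). In this comparison the 7 measured natural killer, NKT and gamma delta T cell markers were all higher in the Foxp3- cells, with a median difference of -3.27, and 11 of 25 cell cycle genes were lower in the Foxp3+ cells, with a median of -0.99, and the part of either in the members' differences was not tested. The call of Hdac6 ended without Foxp3- CD24lo array 2 or 3 or Foxp3+ CD24lo array 1 (adjusted p 0.0836 to 0.109), that of Kat2a without Foxp3- CD24lo array 1 or Foxp3+ CD24lo array 2 or 3 (0.0828 to 0.137), and that of Smarca4 without Foxp3- CD24lo array 1 (-0.34, 0.079). Smarca4 did not pass with probe sets averaged either (-0.32, 0.336). Cd24a was also higher in the Foxp3+ cells at this level, by 1.625 ± 0.42 (adjusted p = 0.00569), and its part was not tested.

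In lymph node, 5 members were higher in Tregs than in naive cells (8.01% of all genes) and 1 was lower (4.35%). Hdac9 was higher by 1.27 ± 0.19 (adjusted p = 2.17e-05), Ezh2 by 0.94 ± 0.22 (0.00347), Kat2b by 0.82 ± 0.21 (0.00814), Hdac1 by 0.42 ± 0.12 (0.016) and Hdac7 by 0.38 ± 0.12 (0.0363), and Hdac5 was lower, at -0.68 ± 0.15 (0.00217). Hdac9, Kat2b, Hdac1 and Hdac5 thus passed in the same direction in lymph node and at each CD24 level in the thymus. These comparisons use different arrays but share the estimate of spread. Deviations of same-numbered arrays were also correlated across groups (median r 0.27, against -0.12 for other pairs). Cell cycle genes differed as well, 9 of 25 higher in Tregs with Mki67, a proliferation marker, higher by 2.53 ± 0.65 (0.00842), and their part in the Ezh2 difference was not tested. The Hdac1 call ended without naive array 2 or Treg array 3 (adjusted p 0.0954 and 0.057), the Kat2b call without naive array 3 (0.73, 0.0514) and the Hdac7 call without any of 4 arrays (arrays 1 and 3 of either group, 0.0674 to 0.184). The replicate numbers paired these samples, and with the block Hdac6 (0.64, 0.000197), Hdac10 (0.46, 0.000956) and Ehmt2 (0.42, 0.00756) passed as well.

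**Figure D3:**
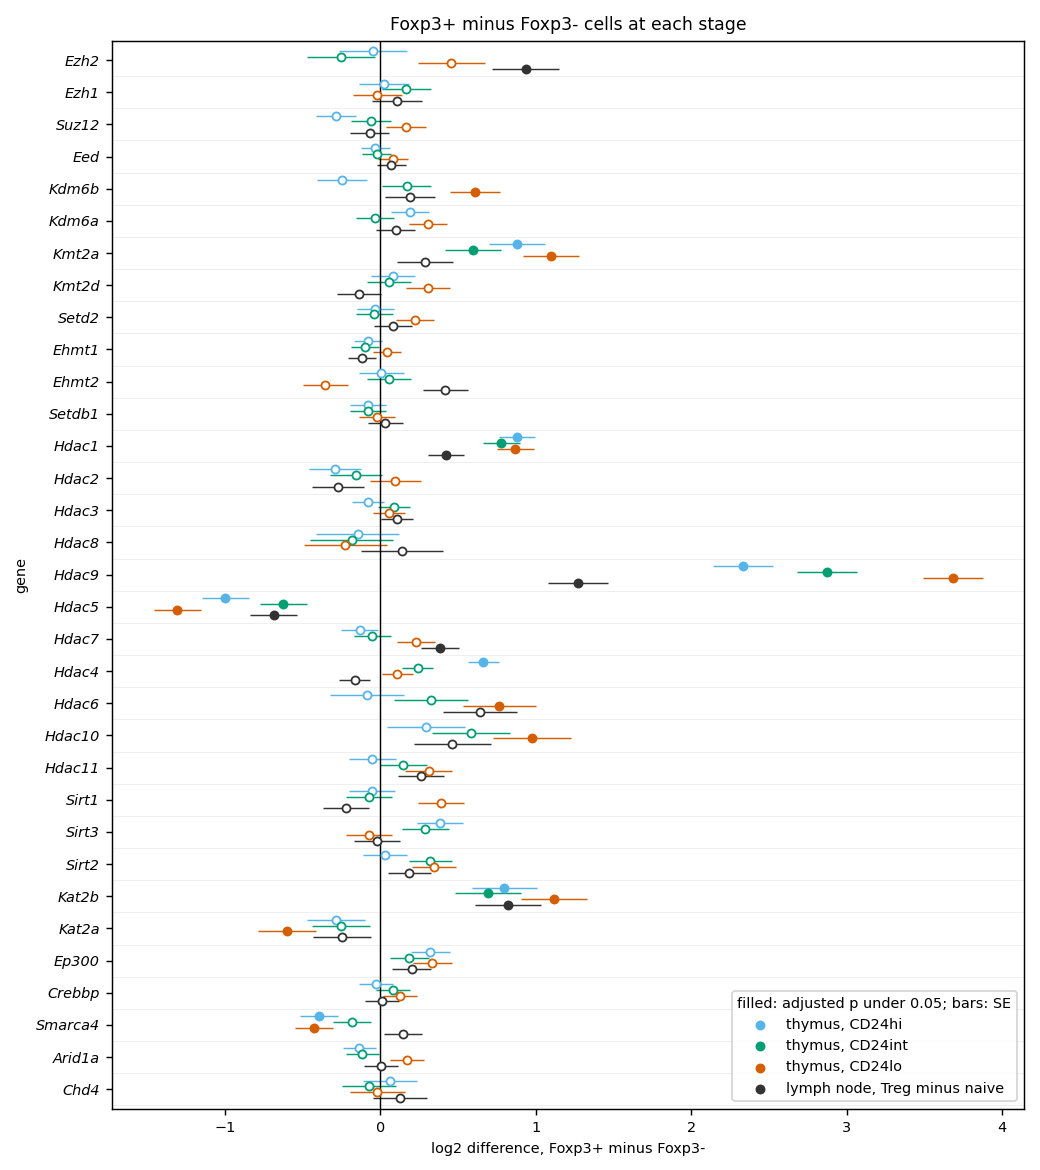
For each of the 33 members (y axis), points give the log2 difference of Foxp3+ minus Foxp3- cells (x axis) at 3 CD24 levels in the thymus and in lymph node, with bars for the standard error and filled points for an adjusted p under 0.05. Hdac9 extends from 1.27 in lymph node to 3.69 at CD24lo, and Hdac5 lies between -1.31 and -0.63.

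Whether the Foxp3 difference itself differed between lymph node and mature thymocytes was tested as the difference of the 2 differences, and 2 members were more positive in lymph node (7.05% of all genes) and 2 were more negative (3.92%). For Hdac9 the difference in lymph node was smaller by -2.41 ± 0.27 (adjusted p = 5.23e-07). Kmt2a, the lysine 4 methyltransferase, was at -0.81 ± 0.25 (0.0379), with a difference of 1.10 in the thymus and 0.29 in lymph node. Ehmt2, a lysine 9 methyltransferase, was at 0.77 ± 0.20 (0.0123), from -0.35 in the thymus to 0.42 in lymph node, and Smarca4 at 0.57 ± 0.17 (0.0299), from -0.43 to 0.14. The Ehmt2 call ended without lymph node Treg array 1 (0.64, 0.0511), the Smarca4 call without any of 7 arrays (Foxp3- CD24lo array 1, Foxp3+ CD24lo arrays 1 and 2, naive arrays 2 and 3 and Treg arrays 1 and 3, 0.0521 to 0.0967) and the Kmt2a call without any of 8 (Foxp3- and Foxp3+ CD24lo arrays 2 and 3, naive arrays 1 and 2 and Treg arrays 1 and 3, 0.0596 to 0.119). Neither Ehmt2 (0.38, 0.0881) nor Smarca4 (0.365, 0.542) passed with probe sets averaged, and Hdac9 was at -1.315 (3.59e-06). With 1 array left out, 1 to 6 members passed, the lowest without Treg array 1 and 2 each without naive array 2, Foxp3+ CD24lo array 2 or Treg array 3. In this test 5 of the 7 natural killer, NKT and gamma delta T cell markers and 17 of 25 cell cycle genes were also more positive, and their part was not tested.

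The series title sets the precursors beside Foxp3- thymocytes. Against Foxp3- CD24hi cells, 1 member was higher in precursors (5.08% of all genes) and 2 were lower (4.03%). Hdac1 was higher by 0.50 ± 0.12 (adjusted p = 0.00585), and Hdac5, at -0.55 ± 0.15 (0.0186), and Arid1a, at -0.37 ± 0.11 (0.0293), were lower. Hdac9, the member of widest range, was at 0.35 ± 0.19 and did not pass (0.356). All 3 calls ended with single arrays left out: Hdac1 without Foxp3- CD24hi array 2 or precursor array 3 (0.0589 and 0.055), Hdac5 without Foxp3- CD24hi array 1 or precursor array 2 or 3 (0.0546 to 0.108), and Arid1a without any Foxp3- CD24hi array or precursor array 2 or 3 (0.0515 to 0.131). Arid1a did not pass with probe sets averaged (-0.33, 0.191). With the compared groups fitted alone, Hdac1 (0.50, 0.0924) and Arid1a (-0.37, 0.096) did not pass. With 1 array left out, 0 to 5 members passed, 0 without precursor array 3, 1 without precursor array 2 or Foxp3- CD24hi array 2, and 5 without precursor array 1. The share of all genes in these refits was not counted. The replicate numbers paired these samples, and with the block 6 members passed, adding Ezh1 (-0.45, 0.000431), Hdac6 (-0.40, 0.02) and Crebbp (-0.35, 0.024). Double-positive thymocyte markers were at a mean of 7.49 in precursors and 6.64 in Foxp3- CD24hi cells, with 5 of 9 higher in precursors. Natural killer, NKT and gamma delta T cell markers were at 5.92 and 4.59, with 4 of 7 higher, and the part of either list was not tested.

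From precursors to Foxp3+ CD24hi cells, the count was larger, with 8 members higher (6.77% of all genes) and 2 lower (9.27%). Hdac9 was higher by 1.99 ± 0.19 (adjusted p = 6.36e-08), Kat2b by 1.14 ± 0.21 (0.000367), Kmt2a by 0.79 ± 0.18 (0.00281), Hdac4 by 0.52 ± 0.10 (0.000475), Ep300 by 0.48 ± 0.13 (0.0086) and Ezh1 by 0.47 ± 0.16 (0.0453). Kmt2d and Hdac1 also passed. The acetyltransferases Kat2b and Ep300 and the lysine 4 methyltransferases Kmt2a and Kmt2d were thus among the higher members, while Kat2a (-0.29, 0.354) and Crebbp (0.32, 0.0536), their relatives among the acetyltransferases, did not pass. Smarca4 was lower, at -0.50 ± 0.12 (0.00466), and Hdac5, at -0.44 ± 0.15 (0.0465). Hdac5 and Hdac1 thus passed in the same direction on both sides of the precursors, in comparisons that share the precursor arrays. Calls that ended with 1 array left out were Ezh1 and Kmt2d (Foxp3+ CD24hi arrays 1 and 2 and precursor arrays 2 and 3, 0.0527 to 0.267 and 0.0585 to 0.142), Hdac1 (Foxp3+ CD24hi arrays 2 and 3 and precursor arrays 1 and 2, 0.0707 to 0.141), Hdac5 (every precursor array and Foxp3+ CD24hi arrays 2 and 3, 0.0539 to 0.252) and Ep300 (Foxp3+ CD24hi array 1 and precursor array 3, 0.0557 and 0.0656). Ezh1 did not pass with probe sets averaged (0.24, 0.272). The Smarca4 call, which no single array ended, did not pass with the compared groups fitted alone (-0.50, 0.0699). In that setting Ezh1 (0.47, 0.138), Hdac1 (0.38, 0.103), Hdac5 (-0.44, 0.0864) and Ep300 (0.48, 0.0528) did not pass either. Without precursor array 2 or 3 or Foxp3+ CD24hi array 2, 6 members passed. The numbers paired these samples, and with the block 16 members passed, adding Hdac10 (0.45, 0.00105), Crebbp (0.32, 0.0266), Hdac2 (-0.38, 0.00928), Ezh2 (-0.32, 0.0297), Hdac7 (-0.31, 0.0237) and Kat2a (-0.29, 0.0293). In Foxp3+ CD24hi cells 6 of 9 double-positive thymocyte markers, 4 of 7 natural killer, NKT and gamma delta T cell markers and 6 of 25 cell cycle genes were lower than in precursors, and their part was not tested. Cd24a was lower there as well, at -1.40 ± 0.42 (0.0236), and its part was not tested.

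**Figure D4:**
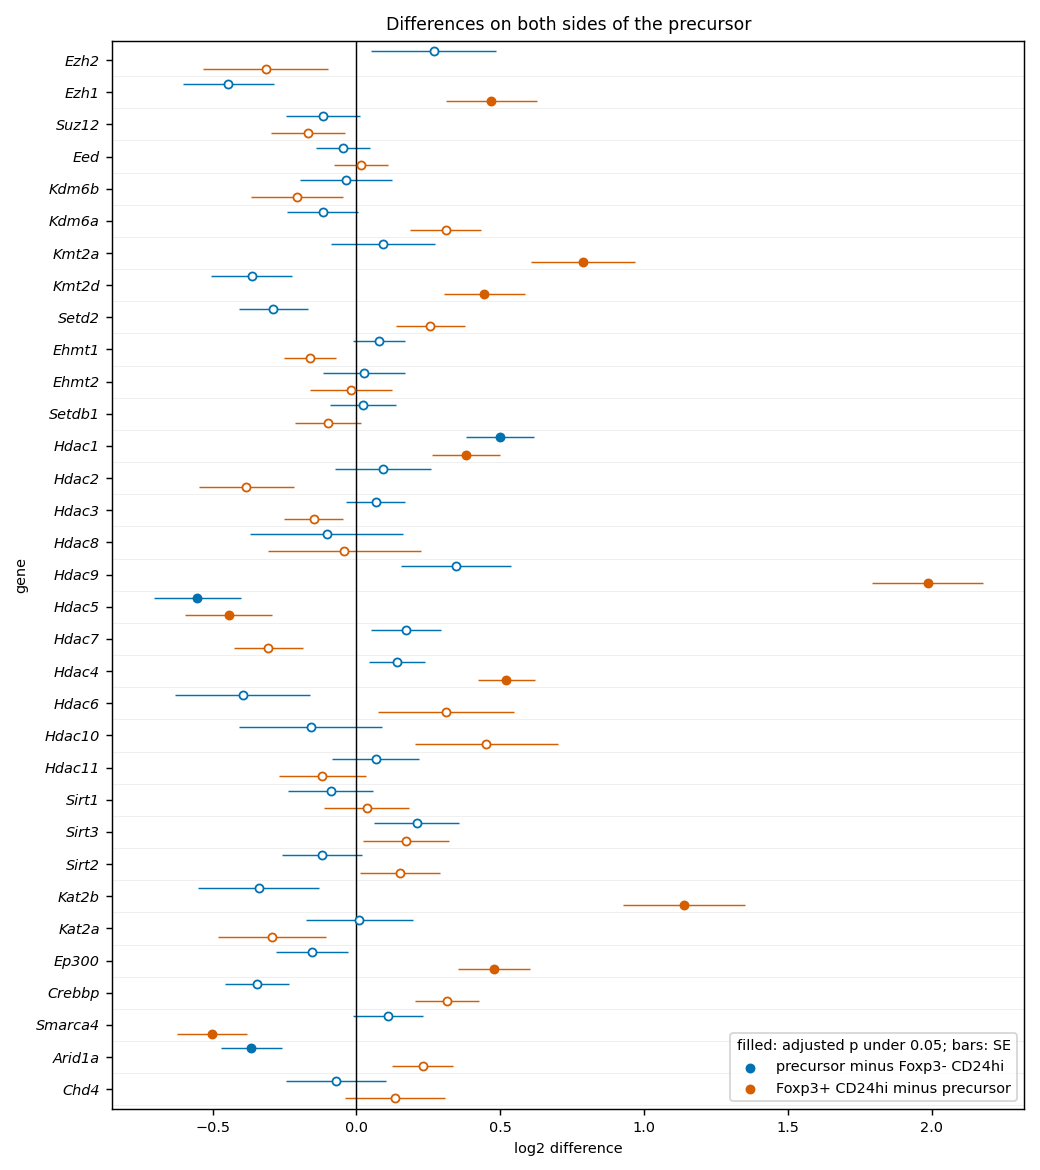
For each of the 33 members (y axis), points give the log2 difference (x axis) of precursors minus Foxp3- CD24hi cells and of Foxp3+ CD24hi cells minus precursors, with bars for the standard error and filled points for an adjusted p under 0.05. Hdac9 is at 0.35 in the first and 1.99 in the second.

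Maturation was followed first in Foxp3+ thymocytes, where few genes of any kind were called. From CD24hi to CD24int 0 members were called by limma (0.286% of all genes in either direction), with 3 at an unadjusted p under 0.05 against 7.67% of all genes. From CD24int to CD24lo 0 were called (0.0165%), with 1 at an unadjusted p under 0.05 against 4.5%. From CD24hi to CD24lo, 1 member was higher (2.29% of all genes) and 0 were lower (0.808%), with 5 at an unadjusted p under 0.05 in either direction against 12.9%. That member was Hdac9, which rose by 1.55 ± 0.19 (adjusted p = 1.85e-05), or 2.92-fold. The replicate numbers paired these samples, and with the block Hdac9 also passed from CD24int to CD24lo (0.91, 0.0339), while Ezh2 (-0.42, 0.0144) and Ehmt1 (-0.27, 0.0152) passed from CD24hi to CD24lo.

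The same steps were compared in Foxp3- thymocytes. From CD24hi to CD24int 1 member was higher (2.26% of all genes) and 1 lower (2.75%), Hdac4, by 0.41 ± 0.10 (adjusted p = 0.0112), and Kdm6b, at -0.65 ± 0.16 (0.0153). From CD24int to CD24lo 2 were higher (7.86%), Hdac5, by 0.61 ± 0.15 (0.00703), and Ehmt2, by 0.44 ± 0.14 (0.045), and 3 were lower (4.13%), Ezh2, at -0.81 ± 0.22 (0.0126), Kdm6b, at -0.59 ± 0.16 (0.0136), and Arid1a, at -0.34 ± 0.11 (0.0397). Kdm6b, the demethylase of the PRC2 mark, and Ezh2, its methyltransferase, thus both fell in the second step. In this step all 7 natural killer, NKT and gamma delta T cell markers rose, from a mean of 5.52 to 8.24, and the cell cycle genes stood at 8.83 and then 8.34, with 1 of 25 lower, and their part was not tested. With probe sets averaged, Kdm6b did not pass in the first (-0.435, 0.0957) or the second step (-0.18, 0.556), and Ehmt2 did not in the second (0.275, 0.0727). Single arrays ended all 7 of these calls. They were Foxp3- CD24hi array 1 and Foxp3- CD24int array 1 for Hdac4 (0.0512 and 0.0565) and Foxp3- CD24hi array 3 and CD24int arrays 1 and 2 for Kdm6b in the first step (0.0812 to 0.0904). In the second step they were CD24int array 2 and CD24lo array 1 for Hdac5 (0.06 and 0.0718), CD24int arrays 2 and 3 and every CD24lo array for Ehmt2 (0.0598 to 0.26), CD24int array 1 and CD24lo array 2 for Ezh2 (0.1 and 0.0895), array 3 of either group for Kdm6b (0.0552 and 0.109), and CD24int array 1 and CD24lo arrays 2 and 3 for Arid1a (0.0834 to 0.238). Left-out arrays gave 0 to 2 calls in the first step, 0 without CD24int array 1, and 2 to 5 in the second, 2 without CD24lo array 2 or 3. With the block, which the pairing of numbers allows, 4 and 9 members passed, adding Hdac5 (-0.32, 0.0415) and Hdac7 (-0.35, 0.0219) in the first step and Ehmt1 (-0.24, 0.0125), Hdac7 (-0.32, 0.0217), Hdac6 (-0.51, 0.00212) and Hdac10 (-0.51, 0.000379) in the second.

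From CD24hi to CD24lo in Foxp3- cells 1 member was higher (9.16% of all genes) and 8 were lower (7.56%). Hdac4 rose by 0.36 ± 0.10 (adjusted p = 0.0109). Kdm6b fell, at -1.24 ± 0.16 (1.87e-06), with Ezh2, at -0.92 ± 0.22 (0.00289), Hdac10, at -0.81 ± 0.25 (0.024), Hdac7, at -0.67 ± 0.12 (0.000167), Arid1a, at -0.46 ± 0.11 (0.00265), and Suz12, at -0.40 ± 0.13 (0.0314). Ehmt1 and Setdb1, both lysine 9 methyltransferases, also fell. The lower members thus included a PRC2 catalytic and a structural subunit, 2 deacetylases and a demethylase, and the median over the members was -0.17 against 0.03 over all genes. The 7 measured natural killer, NKT and gamma delta T cell markers all rose, with a median of 3.02, and their part was not tested. Calls that ended with 1 array left out were Hdac4 (CD24lo array 1, 0.0608), Hdac10 (CD24hi array 1 and CD24lo arrays 2 and 3, 0.109 to 0.135), Suz12 (CD24hi arrays 1 and 2 and CD24lo arrays 1 and 3, 0.0603 to 0.17) and Setdb1 (CD24hi arrays 1 and 2 and CD24lo arrays 2 and 3, 0.0685 to 0.256). Hdac10 (-0.43, 0.119), Suz12 (-0.34, 0.0766) and Setdb1 (-0.23, 0.0872) did not pass with probe sets averaged, and Kdm6b was at -0.62 (0.00281). The numbers paired these samples, and with the block Hdac6 (-0.67, 8.35e-05), Hdac2 (-0.48, 0.0015), Setd2 (-0.32, 0.0247) and Hdac5 (0.29, 0.0385) passed as well.

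Tested as a difference of differences from CD24hi to CD24lo, 2 members were more positive in Foxp3+ than in Foxp3- maturation (4.09% of all genes) and 1 was more negative (4.45%). Hdac9 was at 1.35 ± 0.27 (adjusted p = 0.00128), rising by 1.55 in Foxp3+ cells and at 0.19 in Foxp3- cells. Kdm6b was at 0.85 ± 0.23 (0.0157), having fallen in Foxp3- cells and standing at -0.38, not passing, in Foxp3+ cells. Hdac4 was at -0.55 ± 0.14 (0.0105), having risen in Foxp3- cells and standing at -0.20, not passing, in Foxp3+ cells. That call ended when the compared groups were fitted alone (-0.55, 0.0576), and so did that of its rise in Foxp3- cells (0.36, 0.0633). The Kdm6b call ended without Foxp3+ CD24hi array 1 (0.74, 0.0566) and with probe sets averaged (0.315, 0.463). In that setting Hdac9 was at 0.72 (0.00512). In the reported fit, with the brightest probe set for each gene, the 7 markers of natural killer, NKT and gamma delta T cells all passed as more negative. Cd24a passed as more positive in that fit, at 2.21 ± 0.60 (0.0179). The part of these markers and of Cd24a was not tested.

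**Figure D5:**
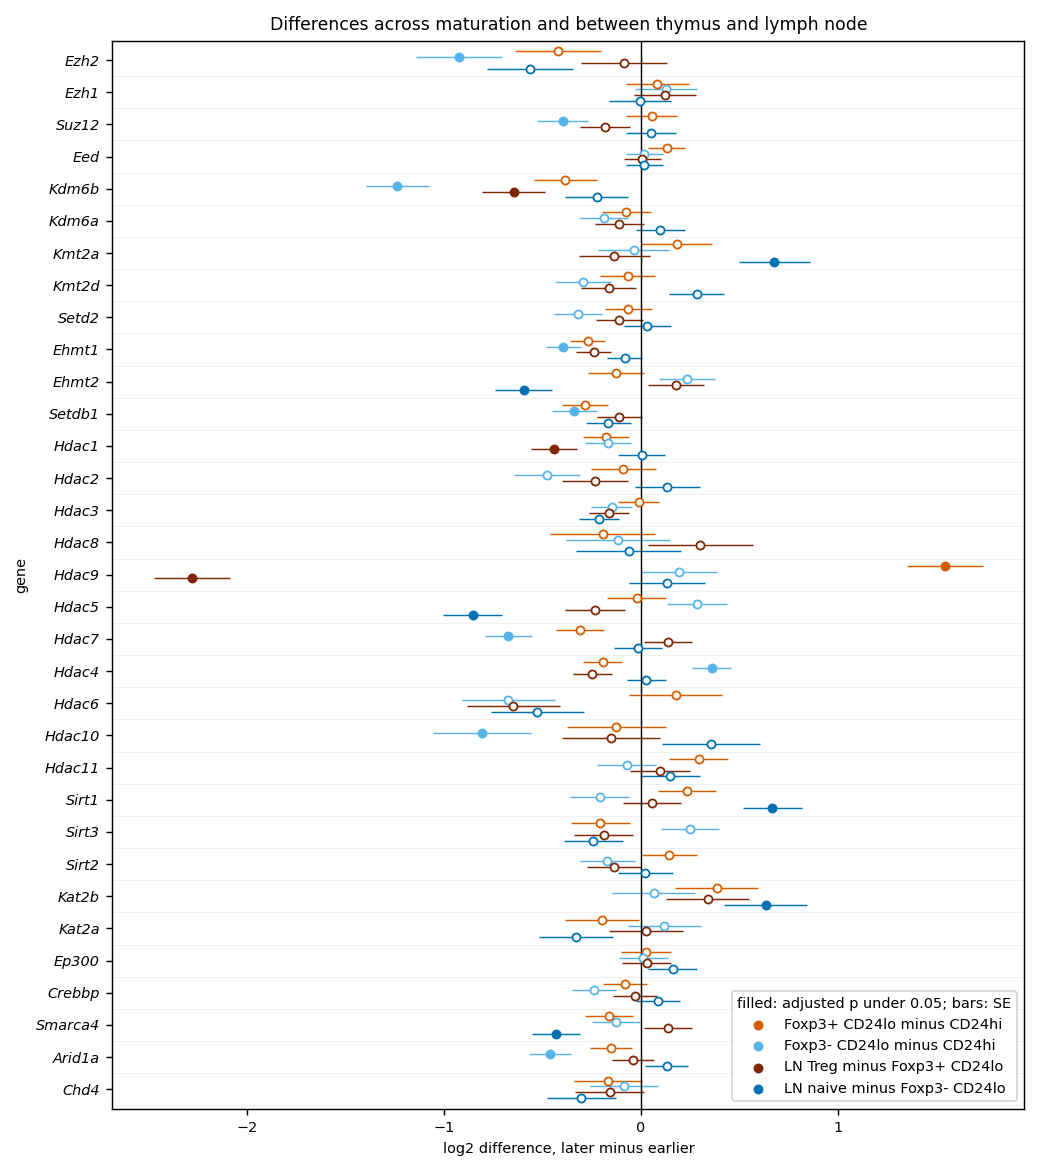
For each of the 33 members (y axis), points give the log2 difference (x axis), later minus earlier, from CD24hi to CD24lo in Foxp3+ and in Foxp3- thymocytes and from CD24lo thymocytes to lymph node cells of the same class, with bars for the standard error and filled points for an adjusted p under 0.05. Hdac9 lies at 1.55 for Foxp3+ maturation and -2.28 from Foxp3+ CD24lo cells to lymph node Tregs, and Kdm6b at -1.24 for Foxp3- maturation.

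Lymph node Tregs were set against Foxp3+ CD24lo thymocytes, and 0 members were higher (3.15% of all genes) and 3 were lower (2.78%). Hdac9 was lower, at -2.28 ± 0.19 (adjusted p = 1.5e-08), a 4.86-fold change. Kdm6b was at -0.65 ± 0.16 (0.0132) and Hdac1 at -0.44 ± 0.12 (0.0236). Of the members that were higher in Foxp3+ than in Foxp3- CD24lo thymocytes, Hdac9, Hdac1 and Kdm6b were therefore lower again in lymph node Tregs, in comparisons that share the Foxp3+ CD24lo arrays. The Kdm6b call ended without Foxp3+ CD24lo array 2 or 3 or Treg array 3 (0.0501 to 0.0971) and the Hdac1 call without any of 5 arrays (Foxp3+ CD24lo arrays 2 and 3 and every Treg array, 0.0543 to 0.116), and 1 member passed without Foxp3+ CD24lo array 2 or 3 or Treg array 3. The numbers paired these samples, and with the block 5 members passed, adding Hdac6 (-0.65, 0.00042) and Ehmt1 (-0.24, 0.0232). Kdm6b did not pass with probe sets averaged (-0.30, 0.32), and Hdac9 was at -1.19 (2.47e-07). In lymph node Tregs 4 of 7 B cell markers were higher, at means of 5.63 against 4.61, and cell cycle genes stood at 8.03 against 7.38, with 0 of 25 called by limma and 10 at an unadjusted p under 0.05, and their part was not tested.

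Lymph node naive cells were set against Foxp3- CD24lo thymocytes, and 3 members were higher (6.03% of all genes) and 3 were lower (8.58%). Kmt2a was higher by 0.68 ± 0.18 (adjusted p = 0.00987), Sirt1 by 0.67 ± 0.15 (0.00208) and Kat2b by 0.64 ± 0.21 (0.0431). Hdac5 was lower, at -0.85 ± 0.15 (0.000185), with Ehmt2, at -0.60 ± 0.14 (0.0046), and Smarca4, at -0.43 ± 0.12 (0.0154). Sirt1, a deacetylase that acts on Foxp3, was thus higher in naive cells than in Foxp3- CD24lo thymocytes, and both groups are Foxp3-negative. Beside this, 20 of 25 cell cycle genes and 6 of 7 natural killer, NKT and gamma delta T cell markers were lower in naive cells, while 3 of 7 B cell markers were higher, and their part was not tested. The Kmt2a call ended without Foxp3- CD24lo array 3 or naive array 2 (0.0518 and 0.0722), the Kat2b call without Foxp3- CD24lo array 2 or 3 or naive array 1 or 2 (0.128 to 0.168), and the Smarca4 call without Foxp3- CD24lo array 1 or naive array 2 (0.101 and 0.0581). Neither Kat2b (0.39, 0.378) nor Smarca4 (-0.43, 0.179) passed with probe sets averaged. Without naive array 2, 3 members passed.

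Leaving out the Foxp3- CD24hi array that carried liver transcripts ended 3 calls that rest on that group: Smarca4 against Foxp3+ CD24hi cells (-0.40, adjusted p = 0.0548), Arid1a against precursors (-0.37, 0.0651) and Kdm6b from CD24hi to CD24int (-0.57, 0.0904). Without it 11 members passed in the averaged Foxp3 comparison, 6 at CD24hi, 2 between precursors and Foxp3- CD24hi cells, 1 from CD24hi to CD24int and 9 from CD24hi to CD24lo in Foxp3- cells, and 3 in the difference of maturations. Shares of all genes without this array were not counted.

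Other chromatin genes, from lists written for this description, were read in the same fit. Of 110 measured (117 listed), 26 were higher and 23 lower in Foxp3+ thymocytes on average, against 14.5% and 16.0% of all genes, with a median difference of -0.01. The counts of the smaller lists that follow stand against the same shares, and no list was tested. Of 23 measured PRC2 accessory and PRC1 genes, the second Polycomb complex, 8 were higher and 3 lower, led by Phc3 (0.89 ± 0.09, adjusted p = 5.6e-09) and Phc1 (0.63 ± 0.06, 1.34e-08), which both code for polyhomeotic subunits of PRC1. Phc1 was also higher at CD24lo (1.07 ± 0.11, 3.68e-08) and in lymph node Tregs (0.53 ± 0.11, 0.000986). Of 23 other methyltransferases 5 were higher and 6 lower, with Prmt5, an arginine methyltransferase, at -0.92 ± 0.07 (9.63e-11) and the lysine 36 methyltransferase Nsd3 at 0.48 ± 0.06 (3.13e-07). Of 16 other demethylases 5 were higher, with Jmjd1c at 0.55 ± 0.07 (8.13e-07), and 1 was lower, Kdm2a (-0.48 ± 0.05, 3.34e-08). Of 20 other acetyltransferases, sirtuins and corepressors 3 were higher and 4 lower, with Sap30, a subunit of the Sin3 corepressor, at -0.91 ± 0.07 (2.48e-10) and Rcor1, the CoREST corepressor, at -0.42 ± 0.09 (0.000568). Of 28 other remodellers and readers 5 were higher and 9 lower, with the remodeller Chd7 at -1.44 ± 0.10 (7.58e-12), and Chd7 was also lower in lymph node Tregs (-1.07 ± 0.17, 3.63e-05). The remodeller Smarca2, the relative of Smarca4, was lower in both (-0.58 ± 0.08, 2.45e-06, and -0.64 ± 0.14, 0.00211).

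In Foxp3- maturation from CD24hi to CD24lo, 23 of the 110 other chromatin genes fell, against 7.56% of all genes, and 3 rose, against 9.16%, with a median of -0.20. They included Phc1 (-1.07 ± 0.11, adjusted p = 4.18e-08), the lysine 4 demethylase Kdm5b (-1.03 ± 0.17, 7.8e-05), Kat6b, an acetyltransferase (-0.88 ± 0.13, 1.57e-05), and Kdm3a, a lysine 9 demethylase (-0.78 ± 0.12, 2.43e-05). Mta3, a NuRD subunit, rose by 1.10 ± 0.12 (1.43e-07) and Chd7 by 0.91 ± 0.17 (0.00022). Between these groups the mean of the natural killer, NKT and gamma delta T cell markers went from 4.59 to 8.24. The mean of the T cell defining markers (6 measured of 7) went from 11.70 to 11.02, the lowest of all groups. The part of either list in these counts was not tested. In Foxp3+ maturation over the same levels 0 of the 110 were called by limma in either direction, against 2.29% of all genes higher and 0.808% lower, and 10 had an unadjusted p under 0.05, against 12.9% of all genes.

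Several members had more than one probe set. Of the 85 calls of members over the 17 comparisons, 59 concerned a gene with another single-symbol probe set, 16 of these had another probe set that passed in the same direction, and 0 had one that passed in the opposite direction. For Kdm6b, another probe set than the brightest also fell from CD24hi to CD24lo in Foxp3- cells (-0.86, adjusted p = 0.00023 over probe sets). A dimmer probe set of Kdm6b was at 0.25 there and at -0.63 for Foxp3+ against Foxp3- at CD24lo, opposite in sign to the brightest, and did not pass (0.667 and 0.13).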

How the data were processed

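The deposited table held 1 intensity per probe set and array, made by the authors with RMA, per the submitters' processing notes, and its version and settings are not given in the sources used here. Per the labels' protocols, RNeasy extraction was followed by biotin labelling of 50 ng of RNA. Deposited intensities ran from 3.55 to 24083, with array medians of 30.3 to 32.0, so they were taken as linear and converted to log2. Depth does not apply, and precision is limited by how many arrays there are: the median standard error was 0.15 between groups, 0.08 for the average and 0.21 for differences of differences.

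Of 45101 probe sets, 34958 had 1 gene symbol in the platform's table, 932 had several and 9211 had none. The brightest single-symbol probe set stood for each gene. limma 3.58.1 in R 4.3.3 fitted 9 group means to 27 arrays with empirical Bayes moderation. P-values were two-sided, adjusted by Benjamini-Hochberg over 18194 genes within each of 17 comparisons, and passed under 0.05. Each member was named, the 10 passing members of widest range were given by array, and up to 6 passing members a direction were given values per comparison. The script was tested on simulated data. Members, lists and tests were chosen with earlier results of these data known.

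Replicate numbers are the first digit of each description code. Deviations from group means correlated over genes above 0.1 for every same-numbered pair in 11 of 17 comparisons, which were taken as paired from the data alone, and the fit with the digit as a block was an alternative. Other alternatives were quantile normalization, leaving out genes with a mean log2 intensity under 4.43, the mean of all probe sets, an intensity trend, fitting the compared groups alone and leaving out each array.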

Additional observations from a re-analysis of the deposited data

Results flagged for a closer look

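These results are listed because the difference between 2 contrasts itself passed the test. From CD24hi to CD24lo, Foxp3+ cells exceeded Foxp3- cells in the change of Hdac9 by 1.353 and of Kdm6b by 0.853 on the log2 scale, and the change of Hdac4 differed by -0.553. Between lymph node and CD24lo thymocytes, the Foxp3 difference of Hdac9 differed by -2.414 and that of Kmt2a by -0.814, and those of Ehmt2 by 0.774 and Smarca4 by 0.571. The Foxp3- CD24lo group, which stood high for natural killer, NKT and gamma delta T cell markers, enters all 7 values, and its part was not tested.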

How the results depend on the processing

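Of the 85 calls of members over the 17 comparisons, 41 passed in the same direction under every alternative run for them, and 0 reversed. Quantile normalization ended 3 calls, the mean of all probe sets 17, fitting the compared groups alone 17, and leaving out dim genes or adding an intensity trend 0. The mean of 0 members lay under the dim cut, so leaving out dim genes changed only the other genes of the fit. It could therefore hardly end a call. Leaving out 1 array ended 39 of the 85 for at least 1 array. Shares of all genes were counted in the reported fit only, so member counts under any alternative, left-out arrays included, have none beside them. The replicate block kept 85 of 85 and added 55. Under it 12 members passed for Foxp3 at CD24hi, 8 at CD24int, 6 for precursors against Foxp3- CD24hi cells, 16 for Foxp3+ CD24hi cells against precursors, 1 and 3 for Foxp3+ cells from CD24int and from CD24hi to CD24lo, 4 and 9 for Foxp3- cells from CD24hi to CD24int and from CD24int to CD24lo, 5 and 11 for lymph node Tregs and naive cells against CD24lo thymocytes, and 6 and 9 for the differences of maturation and of Foxp3 effect. It changed no other count by over 1.5 times. Same-numbered arrays had a median r of 0.27 in their deviations and others -0.12. With the mean of all probe sets, 1 member passed for Foxp3- cells from CD24hi to CD24int and 2 for the difference of Foxp3 effects. With the compared groups alone, which leaves fewer samples, 1 and 5 passed for the comparisons below and above the precursors, and 0 and 3 for the steps of Foxp3- cells. With the mean of all probe sets, Hdac9 stayed past the threshold at smaller values, 1.52 for the averaged Foxp3 comparison, 1.91 at CD24lo and -1.19 for lymph node Tregs against thymocytes, while 5 of the 17 lost calls were of Kdm6b, at 0.10 for Foxp3 at CD24lo. For Hdac9 that mean joins the brighter probe set with another on which none of its calls passed. It is therefore no independent check of Hdac9.

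With 1 array left out, the number of members passing ranged from 10 to 13 for the averaged Foxp3 comparison, 6 to 6, 3 to 6 and 9 to 11 at CD24hi, CD24int and CD24lo, and 4 to 7 in lymph node. It ranged from 0 to 5 and 6 to 9 for the comparisons below and above the precursors. For Foxp3+ maturation it was 0 to 0 in each step and 1 to 1 from CD24hi to CD24lo, and for Foxp3- maturation 0 to 2, 2 to 5 and 7 to 9. It ranged from 1 to 3 and 3 to 6 for lymph node Tregs and naive cells against thymocytes, 3 to 3 and 1 to 6 for the differences of maturation and Foxp3 effect, and 17 to 22 for the F test. Signal near the bottom of the scale limits the Hdac9 folds.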
